A study of Mus musculus with 8 samples.

Results

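The Hippo pathway genes Lats1, Wwc1, Amotl2 and Fat4 were examined for trimethylation of lysine 4 on histone H3 (H3K4me3), the histone mark of active gene starts, in whole mouse brain at E12.5. The 4 genes were represented by 4 promoter windows on mm9, which were chr10:7394000-7410000 for Lats1, chr11:35788000-35798000 for Wwc1, chr9:102612000-102628000 for Amotl2 and chr3:38780000-38794000 for Fat4. Every peak that overlapped a window by at least 1 bp was a member, and this gave 27 of the 74232 peaks in the 4 lists. The dKO libraries contributed 8 peaks (replicate 1) and 6 peaks (replicate 2), and the WT libraries contributed 6 and 7 peaks. The windows were chosen with the dKO and WT values of these same lists known, so the difference between genotypes is described below and carries no test.

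The dKO group held 2 H3K4me3 libraries from brains in which Lats1 and Lats2 were deleted with Nestin-Cre, and the WT group held 2 libraries from controls that had no Cre. Cre was present in dKO brains and absent from WT brains, so an effect of Cre cannot be told apart from loss of the kinases. The Nestin promoter is known for driving Cre in neural progenitors, whole brain also holds other cells, and the extent of deletion in these brains was not measured here. All mice were of mixed strain background, and no label names the embryo behind a library or says which alleles the controls carried, so the SD values below measure the spread between libraries. In tissue made of many cell types, fewer marked cells and less of the mark per cell cannot be told apart.

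The Hippo pathway is a kinase cascade that keeps the transcriptional coactivators YAP and TAZ out of the nucleus. LATS1 and LATS2 phosphorylate YAP and TAZ, and without that phosphorylation the coactivators bind TEAD transcription factors at their target genes. Some of those targets encode restraints on YAP and TAZ themselves. In the embryonic brain the pathway is known for its part in setting the number of neural progenitors. H3K4me3 covers the nucleosomes around active starts, and broad domains of it are known from genes that define a cell type.

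The sequence upstream of each gene start is shown to place the genes by what they carry before the mark is described. The RefSeq table of build GRCm38.p6 matched 4 of 4 genes. The 250 bases before each start run 5′ to 3′ on the gene's own strand, and capitals mark a match to GGAATG on either strand, the core of the TEAD site.
Lats1: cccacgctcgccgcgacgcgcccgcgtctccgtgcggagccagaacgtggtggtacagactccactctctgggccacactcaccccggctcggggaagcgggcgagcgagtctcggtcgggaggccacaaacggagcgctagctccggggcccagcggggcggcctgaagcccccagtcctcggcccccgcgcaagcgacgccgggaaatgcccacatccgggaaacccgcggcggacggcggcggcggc
Wwc1: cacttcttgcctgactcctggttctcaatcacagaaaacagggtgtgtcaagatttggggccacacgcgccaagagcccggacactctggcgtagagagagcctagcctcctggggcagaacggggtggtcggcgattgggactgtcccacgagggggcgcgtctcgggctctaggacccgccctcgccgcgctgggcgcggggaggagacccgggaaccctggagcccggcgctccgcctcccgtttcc
Amotl2: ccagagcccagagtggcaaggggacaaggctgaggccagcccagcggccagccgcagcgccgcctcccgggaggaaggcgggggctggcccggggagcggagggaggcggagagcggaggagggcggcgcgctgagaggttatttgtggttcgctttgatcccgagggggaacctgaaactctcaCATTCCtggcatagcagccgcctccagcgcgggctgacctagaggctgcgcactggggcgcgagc
Fat4: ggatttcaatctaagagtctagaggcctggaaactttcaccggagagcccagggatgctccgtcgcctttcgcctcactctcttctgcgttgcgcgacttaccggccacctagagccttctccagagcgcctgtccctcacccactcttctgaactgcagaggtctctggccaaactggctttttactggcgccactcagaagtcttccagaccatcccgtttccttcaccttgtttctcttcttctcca
These stretches lie at chr10:7680959-7681208 (+ strand) for Lats1, chr11:35980528-35980777 (- strand) for Wwc1, chr9:102717554-102717803 (+ strand) for Amotl2 and chr3:38886690-38886939 (+ strand) for Fat4. All these positions are on GRCm38.p6 and cannot be set against the mm9 peaks, so where each start lies inside its H3K4me3 domain is not given.

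Amotl2 was the only one of the 4 stretches with the TEAD core, a single match to its reverse complement CATTCC that began 65 bases before the start. The same letters on either strand were found in 4153 of 32851 RefSeq promoters (12.6%) over the same length. TGANTCA, the site of the AP-1 factors, was in none of the 4 and in 6.7% of all. A match describes these letters in this stretch and says nothing of binding. Lats1 had the richest sequence, with 74.8% G+C and a ratio of observed to expected CpG of 1.06, against medians of 52.4% and 0.37 over all promoters. Wwc1 had 67.2% G+C and a CpG ratio of 0.78, Amotl2 had 70.4% and 0.70, and Fat4 had 54.8% and 0.63. In the RefSeq table the promoter of Pcmt1, on the opposite strand, overlaps that of Lats1, and the promoter of the noncoding C230034O21Rik, also opposite, overlaps that of Fat4. H3K4me3 has no strand, so marks from these neighbours cannot be told apart from those of Lats1 and Fat4. Wwc1 and Amotl2 had no such neighbour.

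The lists held 18048 and 17367 peaks in dKO replicates 1 and 2, and 19486 and 19331 peaks in WT replicates 1 and 2. The sequence under peaks in the whole genome came to 19.33 and 17.33 Mb in dKO and to 20.27 and 21.41 Mb in WT. Both dKO lists were thus shorter than both WT lists. Over 14943 windows of 16000 bp, each centred on a region that every library marked, the median log2 ratio of bp under peaks, dKO over WT, was -0.14. Read depth was unknown for every library, and its part in these differences was not tested.

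Beside that background, Wwc1 and Amotl2 had more bp under H3K4me3 peaks in both dKO libraries than in both WT libraries, Fat4 had fewer, and Lats1 overlapped. Every dKO library was above every WT library in 2 of the 4 windows, where 3.21% of the 14943 windows were, and every dKO library was below every WT library in 1, where 44.1% were. The members were chosen on this contrast, so nothing is read from these counts. With each library set relative to its own median window, Wwc1 and Amotl2 stayed above, Fat4 overlapped, and the shares of all windows became 21.3% above and 19.3% below. Leaving out WT replicate 1, or leaving out dKO replicate 1, gave a count below of 2, since Lats1 then no longer overlapped. A library left out can only keep or raise such a count. The count below was 0 with peaks within 1000 bp merged first. With the main region of each gene (the widest region made by merging the 4 lists) in place of its window, the counts were again 2 above and 1 below, beside 4.17% and 39.1% of the 14943 regions. With regions merged across gaps of up to 1000 bp they were 2 and 1, beside 3.94% and 41.1% of 13573 regions.

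**Figure D1:**
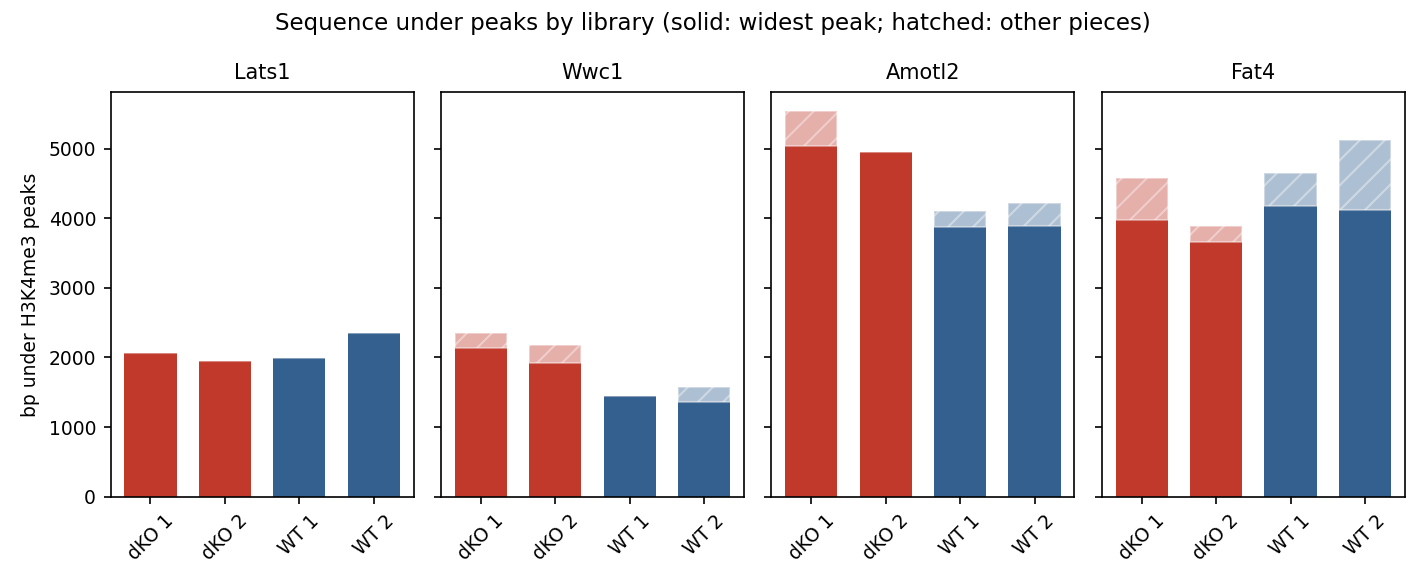
Base pairs under H3K4me3 peaks (y axis, from 0) in each library (x axis; dKO 1 and dKO 2, then WT 1 and WT 2) for the 4 promoter windows; solid bars are the widest peak and hatched bars the other pieces. Wwc1 stands at 2353 and 2174 bp in dKO against 1446 and 1573 bp in WT, and Amotl2 at 5535 and 4950 bp in dKO against 4096 and 4216 bp in WT.

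Lats1, the kinase gene named in the genotype, kept its H3K4me3 peak in every library. The peak covered 2064 bp in dKO replicate 1 and 1952 bp in dKO replicate 2, against 1999 bp in WT replicate 1 and 2350 bp in WT replicate 2. The groups overlapped, with WT replicate 2 widest. The means were 2008 ± 79.2 bp in dKO and 2174.5 ± 248 bp in WT (SD, n = 2 each), a difference of -166.5 bp that was 9 bp without WT replicate 2. The labels do not say which part of Lats1 the deletion removes, so a mark at the start is no check of the deletion. Lats2 was not analysed here.

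The Lats1 mark was 1 unbroken piece in all 4 libraries. Its lower end lay at 7399990 and 7400181 in dKO and at 7399794 and 7400146 in WT, so these ends overlapped. Its upper end, on the side toward the gene body, lay at 7402053 and 7402132 in dKO and at 7402144 and 7402143 in WT. Both dKO ends fell short of the WT ends, the nearer by 11 bp. How many regions of the genome have ends that separate by genotype was not counted, for this gene or the others. A stretch of 1873 bp, from 7400181 to 7402053, was under peaks in all 4 libraries and made up 79.7% of the bases marked in any. By score, a number for each peak on a scale that the authors do not name, Lats1 ranked 384 and 1040 in its dKO lists and 1279 and 100 in its WT lists, with rank 1 the highest. These ranks are percentiles 97.9 and 93.9 in dKO and 93.4 and 99.5 in WT, so Lats1 stood among the strongest peaks of each list and the groups overlapped.

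Wwc1 encodes KIBRA, a scaffold protein with WW domains that helps to activate the LATS kinases at the cell cortex. Its window held 2353 bp under peaks in dKO replicate 1 and 2174 bp in dKO replicate 2, against 1446 bp in WT replicate 1 and 1573 bp in WT replicate 2. Both dKO libraries were higher than both WT libraries, by at least 601 bp. The means were 2263.5 ± 127 bp in dKO and 1509.5 ± 89.8 bp in WT (SD, n = 2 each), a 1.5-fold ratio and a log2 ratio of 0.58 (0.72 relative to the median window). Over all windows 31 of 14943 had a higher log2 ratio. Wwc1 and Amotl2 were chosen with their dKO and WT values known, so such counts of windows, here and below, are no test. With peaks under 500 bp left out the difference was 627 bp instead of 754 bp.

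The added sequence at Wwc1 lay on one side. Wwc1 is read on the minus strand, so lower coordinates lie further along the direction of transcription. On that side the widest peak reached 35792369 and 35792481 in dKO, against 35793015 and 35792973 in WT. Both dKO peaks reached further, and the nearest dKO and WT limits were 492 bp apart. On the other side it ended at 35794506 and 35794397 in dKO and at 35794460 and 35794327 in WT, and these ends overlapped. The widest peak measured 2138 and 1917 bp in dKO, where it ranked 1205 and 1328 by width, against 1446 and 1355 bp in WT, where it ranked 4618 and 6014.

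A small separate piece stood beyond the widest Wwc1 peak in 3 of 4 libraries. It measured 215 bp (35791965 to 35792179) in dKO replicate 1 and 257 bp (35792094 to 35792350) in dKO replicate 2, against 218 bp (35792646 to 35792863) in WT replicate 2, while WT replicate 1 had none. The piece of WT replicate 2 lay inside the stretch that the widest peak covered in both dKO libraries, and the dKO pieces lay beyond it. The pieces were weak, at score percentiles 1.4 and 8.1 in dKO and 8.5 in WT. Bases under peaks in both dKO libraries and no WT library summed to 360 bp, in 3 stretches from 35792094 to 35792179, 35792481 to 35792645 and 35792864 to 35792972. The reverse, both WT and no dKO, was 0 bp. Over all windows the median of bases in both dKO and no WT libraries was 0 bp, and 29 of 14943 windows, that of Wwc1 among them, had at least as many as Wwc1.

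At Wwc1 the score ranks did not overlap between genotypes, and at the other members they did. The windows were chosen with these ranks known, and the share of all windows whose ranks separate was not counted. Nothing is read from this separation. Its best peak stood at percentile 85.6 in dKO replicate 1 and 92.4 in dKO replicate 2, against 76.7 in WT replicate 1 and 58.5 in WT replicate 2. The ranks were 2587 and 1317 in dKO and 4482 and 8011 in WT. Lists differ in length and in their weak peaks, so these ranks place Wwc1 within each list and measure no change in the mark.

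**Figure D2:**
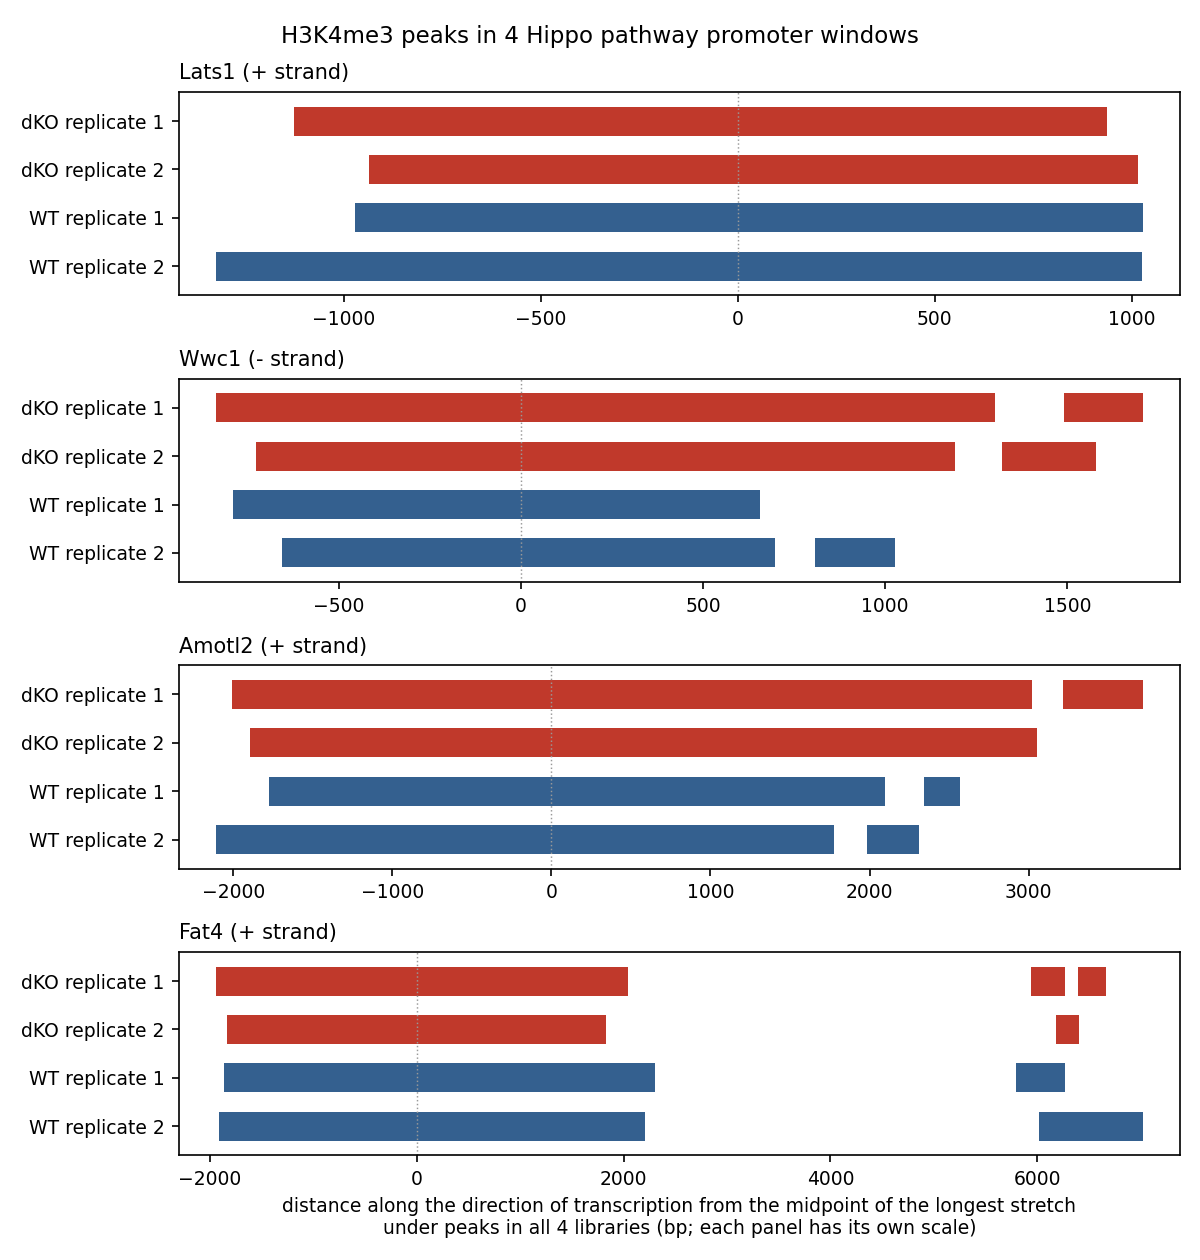
Each bar is 1 H3K4me3 peak, drawn to scale along the direction of transcription (x axis, bp from the midpoint of the longest stretch under peaks in all 4 libraries; strands from RefSeq), with dKO replicates above WT replicates. The right-hand limit of the widest peak lies further out in both dKO libraries at Wwc1 and Amotl2. It falls short of both WT libraries at Lats1, by at least 11 bp, and at Fat4, by at least 172 bp. The windows were chosen with these limits known, and the share of all regions whose limits separate was not counted. In bp under peaks, every dKO library was below every WT library in 39.1% of 14943 regions and above in 4.17%.

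Amotl2 encodes an angiomotin-like protein that binds YAP and holds it at cell junctions, and it is widely used as a target gene of YAP and TAZ. Peaks covered 5535 bp in dKO replicate 1 and 4950 bp in dKO replicate 2, against 4096 bp in WT replicate 1 and 4216 bp in WT replicate 2. Both dKO libraries were higher than both WT libraries, by at least 734 bp. The means were 5242.5 ± 414 bp in dKO and 4156 ± 84.9 bp in WT (SD, n = 2 each), a 1.26-fold ratio and a log2 ratio of 0.33 (0.47 relative to the median window). A higher log2 ratio was found in 113 of 14943 windows.

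The Amotl2 domain was among the broadest of each list. Its widest peak measured 5036 and 4950 bp in dKO, the 19th and 17th widest of the list, against 3874 and 3885 bp in WT, the 70th and 98th widest. The dKO replicates differed by 86 bp here and the WT replicates by 11 bp, and the nearest dKO and WT widths by 1065 bp. The start of the domain did not separate the genotypes, at 102619294 and 102619411 in dKO and at 102619528 and 102619197 in WT. The end of the widest peak, toward the gene body, lay at 102624329 and 102624360 in dKO, against 102623401 and 102623081 in WT. The dKO ends lay further along, by at least 928 bp, while the WT ends were 320 bp apart. With the smaller pieces described below counted, the outer ends lay further along in dKO by at least 490 bp. These outer ends were 662 bp apart between the dKO replicates and 253 bp apart between the WT replicates.

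Smaller pieces followed the widest Amotl2 peak in 3 of 4 libraries. The piece was 499 bp (102624524 to 102625022) in dKO replicate 1, against 222 bp (102623649 to 102623870) in WT replicate 1 and 331 bp (102623287 to 102623617) in WT replicate 2, and dKO replicate 2 had none. Both WT pieces lay within the stretch that the single broad dKO peak covered, so the WT mark there was broken by gaps of 247 and 205 bp. The pieces stood at score percentile 11.6 in dKO replicate 1 and at 5.9 and 10.6 in WT. Bases under peaks in both dKO libraries and no WT library summed to 490 bp, of which 459 bp formed 1 stretch from 102623871 to 102624329. Both WT and no dKO libraries shared 0 bp. At least as many bases in both dKO and no WT libraries were found in 12 of 14943 windows, that of Amotl2 among them.

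The score rank of Amotl2 did not follow its width. The best peak stood at percentile 83.4 in dKO replicate 1 and 94.8 in dKO replicate 2, against 93.2 in WT replicate 1 and 92.4 in WT replicate 2. The dKO values lay on either side of the WT values. The nearest peak outside the domain was at least 26051 bp away in every library.

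**Figure D3:**
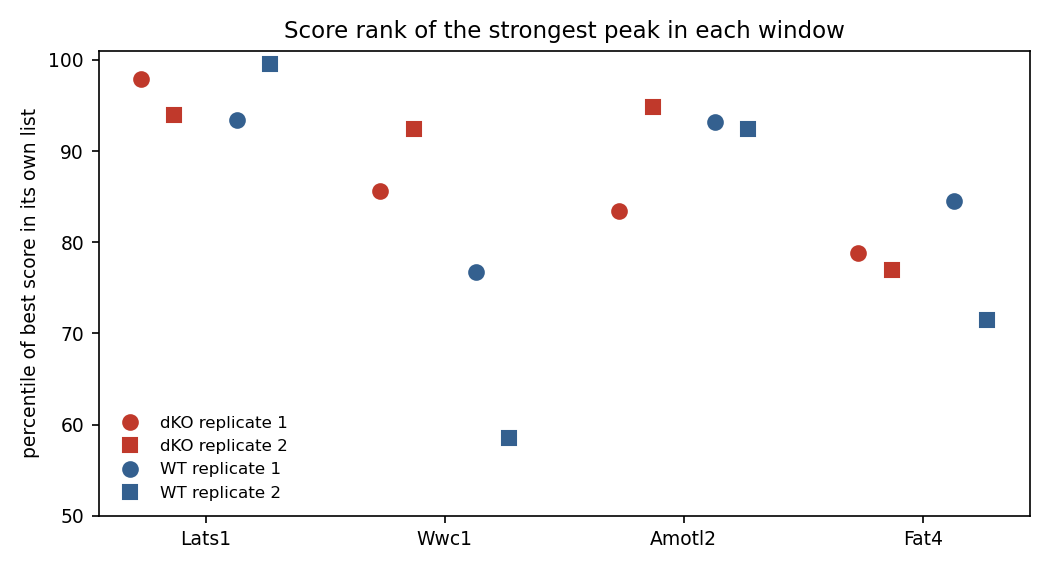
Percentile of the best score of each promoter window within its own peak list (y axis, 50 to 100) for the 4 genes (x axis); red points are dKO libraries and blue points WT libraries, circles replicate 1 and squares replicate 2. At Wwc1 both dKO points (85.6 and 92.4) lie above both WT points (76.7 and 58.5), and at the other genes the groups overlap. The windows were chosen with these ranks known, and the share of all windows whose ranks separate was not counted.

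Fat4 encodes a giant atypical cadherin, the mammalian relative of Fat, which in Drosophila acts upstream of the Hippo kinases. Its window held 4576 bp under peaks in dKO replicate 1 and 3888 bp in dKO replicate 2, against 4647 bp in WT replicate 1 and 5129 bp in WT replicate 2. Both dKO libraries were lower than both WT libraries, the nearest by 71 bp, which is less than the spread between replicates. The means were 4232 ± 486 bp in dKO and 4888 ± 341 bp in WT (SD, n = 2 each), a log2 ratio of -0.21 (-0.07 relative to the median window). The difference of -656 bp shrank to -312 bp when dKO replicate 2 was left out and to -415 bp when WT replicate 2 was, and it was -1000 bp with dKO replicate 1 left out. A lower log2 ratio was found in 35.3% of all windows.

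The Fat4 mark had a broad domain and a second, small site beyond it in the direction of transcription, in all 4 libraries. The broad peak measured 3980 and 3665 bp in dKO, against 4169 and 4123 bp in WT. It was the 58th and 68th widest peak in dKO and the 45th and 69th widest in WT. The domain began within 108 bp of the same place in all libraries, between 38783692 and 38783800 in dKO and between 38783721 and 38783765 in WT. Its end lay at 38787671 and 38787464 in dKO, against 38787933 and 38787843 in WT, so both dKO ends fell short. A stretch of 172 bp, from 38787672 to 38787843, was under peaks in both WT libraries and no dKO library, and 0 bp were in both dKO and no WT libraries. At least 172 bp of such WT bases were found in 2155 of 14943 windows.

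The second Fat4 site began 3902 and 4353 bp after the broad peak in dKO, and 3491 and 3804 bp after it in WT. It was called as 2 pieces of 331 and 265 bp in dKO replicate 1 and as 1 piece of 223 bp in dKO replicate 2, against 1 piece of 478 bp in WT replicate 1 and 1006 bp in WT replicate 2. The summed widths overlapped, at 596 and 223 bp in dKO and 478 and 1006 bp in WT. The second site was weak everywhere, at score percentiles from 3.8 to 7.1 in dKO and at 19.1 and 16.4 in WT. With the window ended before it, a limit chosen after its values were seen, the Fat4 difference was -323.5 bp. The best peak of Fat4 stood at percentile 78.8 and 77.0 in dKO and at 84.5 and 71.5 in WT, and the groups overlapped.

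**Figure D4:**
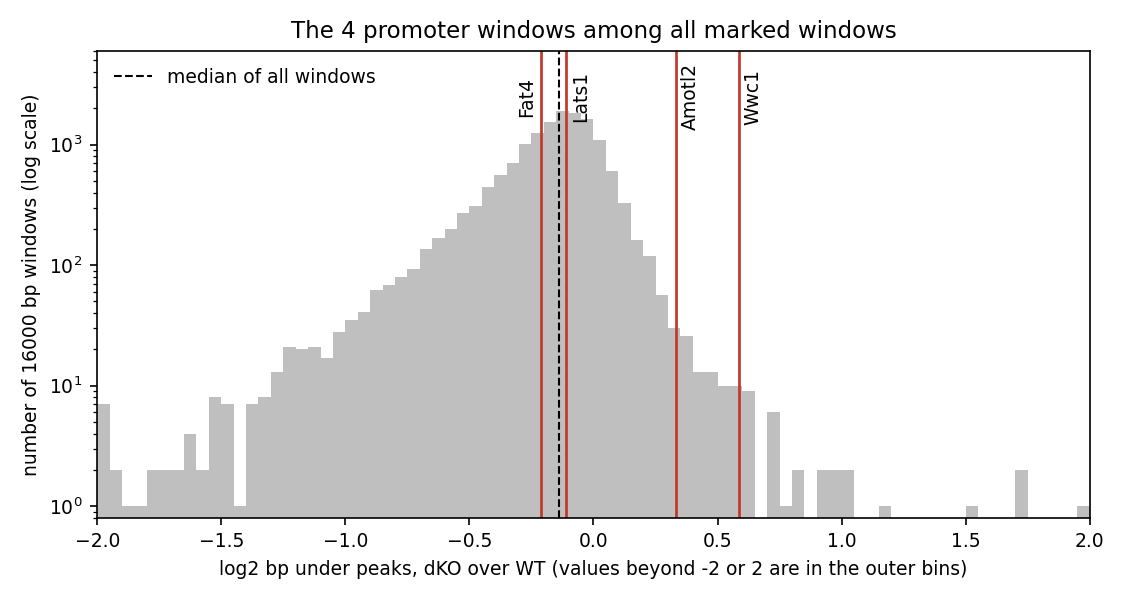
Number of windows of 16000 bp (y axis, log scale) by the log2 ratio of bp under peaks, dKO over WT (x axis; grey bars, 14943 windows), with the 4 promoter windows as red lines and the median of all windows, -0.14, dashed. Lats1 (-0.11) and Fat4 (-0.21) lie near the median, and Amotl2 (0.33) and Wwc1 (0.58) lie in the upper tail, and all 4 were chosen with these values known.

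Set side by side, the 4 genes stood in a different order of total bp in each genotype. From most to least, the order was Amotl2, Fat4, Wwc1 and Lats1 in both dKO libraries. In both WT libraries it was Fat4, Amotl2, Lats1 and Wwc1, so both neighbouring pairs stood in the other order. In dKO replicate 2 the sums were 4950 bp for Amotl2 and 3888 bp for Fat4, and in WT replicate 1 they were 4096 bp for Amotl2 and 4647 bp for Fat4. The main regions leave out the second Fat4 site, the small dKO pieces of Wwc1 and the small Amotl2 piece of dKO replicate 1. They kept these orders in replicate 1 of each genotype. In WT replicate 2 they measured 4216 bp for Amotl2 and 4123 bp for Fat4. In dKO replicate 2 they measured 1917 bp for Wwc1 and 1952 bp for Lats1, so a pair turned in each. The windows were chosen with these values known, so nothing is read from the orders. By mean width over libraries, 45 regions of 14943 were wider than the main Amotl2 region and 82 wider than the main Fat4 region, while 1536 were wider than that of Lats1 and 2811 than that of Wwc1.

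Libraries were also compared in pairs. The windows were chosen with the dKO and WT widths known, and libraries of unlike width cannot share all their bases. The shares thus restate the widths in part and are no separate result. At Wwc1, dKO replicate 1 covered all 1446 bp of WT replicate 1 and all 1573 bp of WT replicate 2. At Wwc1 the share of bases common to a pair of libraries, of those in either, was 79.4% for the dKO pair and 77.0% for the WT pair, and it was 61.5% to 72.4% for the 4 pairs of a dKO and a WT library. Amotl2 had 88.4% for the dKO pair and 79.0% for the WT pair, with 73.1% to 82.7% across genotypes. At Lats1 the most alike pair crossed genotypes, dKO replicate 2 with WT replicate 1 at 97.6%. Fat4 likewise had its highest share, 85.5%, between dKO replicate 1 and WT replicate 2.

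For each gene the most similar other region of the genome was taken as that with the smallest Euclidean distance over the 4 log2 widths, among regions that every library marked. For Lats1 this was on chromosome 11 from 58142859 to 58145188, at a distance of 0.037, and for Fat4 on chromosome 11 from 108781375 to 108785551, at 0.065. Wwc1 and Amotl2 had less similar partners. Their windows were chosen with these dKO and WT widths known, so the larger distances are no separate result. The widths compared were those of the main regions. For Wwc1 these were 2138 and 1917 bp in dKO and 1446 and 1573 bp in WT. They hold the small piece of WT replicate 2 but not the small dKO pieces. The nearest to Wwc1, on chromosome 11 from 6446157 to 6448304, was at 0.256 with 1877 and 1819 bp in dKO and 1460 and 1753 bp in WT. The nearest to Amotl2, on chromosome 8 from 46019447 to 46024473, was at 0.207 with 4873 and 4635 bp in dKO and 4463 and 4606 bp in WT. These regions are given by position alone, since no annotation on mm9 was used here, and for the same reason the other genes of the Hippo pathway were not placed.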

How the data were processed

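H3K4me3 peak lists of 4 libraries were used, and 4 input libraries were not analysed here. The submitters' processing notes name MACS2 2.1.1.20160309, bedtools, Picard 2.6.0, BWA 0.7.12-r1039, R 2.14.0 and SAMtools, and the build mm9. The role and thresholds of each tool and the use of input are not given in the sources used here. The deposited lists give peak positions and a score on an unnamed scale, at least 13 in each list, used here to rank peaks within a list. Lists were not pooled. No counts are given, so depth and counting error are unknown. At a fixed threshold, deeper sequencing or less background widens peaks and adds to them.

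Python 3.11.15, numpy 2.4.6, pandas 2.3.3 and matplotlib 3.10.9 were used. Whole peaks overlapping a window by 1 bp were summed. Main regions were merged peaks of the 4 lists. Functions were tested on simulated lists. The named genes are the 4 members and, for each, 1 most similar region. Members, windows and lists were chosen with earlier results of these data known. No test was run, since exact permutation of 2 against 2 cannot give a p below 0.3333. The lists of cell type markers and of other Hippo genes were not used for want of an mm9 annotation. Alternatives were merging peaks within 1000 bp, lists limited to 17367 peaks, no peaks under 500 bp, clipped or 5000 bp wider windows, scaling to the median, and leaving out each library.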

Additional observations from a re-analysis of the deposited data

How the results depend on the processing

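In bp under peaks, every dKO library kept stayed above every WT library kept at Wwc1 and Amotl2 under the alternatives run. Leaving out a library cannot undo such a separation, and ending the Fat4 window earlier cannot touch Wwc1 or Amotl2. Those settings are therefore no check of it. At Fat4 the mean difference stayed negative, but the libraries overlapped with peaks within 1000 bp merged (-593.5 bp) and relative to the library median. The difference in bp under peaks, dKO minus WT, ranged with a library left out from 664.5 to 843.5 bp at Wwc1, 794 to 1379 bp at Amotl2, -1000 to -312 bp at Fat4 and -342 to 9 bp at Lats1, whose sign turned without WT replicate 2. The Wwc1 difference was 627 bp without peaks under 500 bp and 627 bp for the widest peak alone, a choice made after the data were seen, since both remove its small pieces. Windows with every dKO library above every WT library numbered 2 under all 14 alternatives, some of which could not lower that count. Those below numbered 1, but 0 with peaks within 1000 bp merged, 0 relative to the library median and 1 to 2 with a library left out. A library left out can only keep or raise either count. Clipping or widening the windows altered none of the bp values. No paired analysis was possible because no label says that a shared replicate number pairs libraries, and no model was fitted. By number alone, the differences for replicates 1 and 2 were 907 and 601 bp at Wwc1, 1439 and 734 bp at Amotl2, -71 and -1241 bp at Fat4 and 65 and -398 bp at Lats1. Unknown depth limits every width.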
